A study of Mus musculus with 32 samples.

Results

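The genes described here are subunits of the proteasome and Rbx1. They were chosen as every spot whose title holds the word proteasome or ring-box protein 1, leaving aside titles that begin with EST (expressed sequence tag, a partial read of a cDNA). The rule found 7 of 4696 gene spots, titled for Psma1, Psmb4, Psmb5, Psmd4, Psmd7, Psmd13 and Rbx1. Symbols were assigned by hand from the titles, and the clone sequences were not used here, so each gene name is that of a spot's title. The series measured prefrontal cortex of adult mice from lines selectively bred, out of a genetically mixed stock, to be prone (WSP) or resistant (WSR) to seizures in ethanol withdrawal, and it asks how this background alters expression in abstinence. The lines WSP-1, WSP-2, WSR-1 and WSR-2 are the 4 breeding lines. The 8 groups were female WSP EtOH, female WSP Air, female WSR EtOH, female WSR Air, male WSP EtOH, male WSP Air, male WSR EtOH and male WSR Air. EtOH mice breathed ethanol vapor for 72 h after an ethanol injection, which was larger in WSP-2 than the 1.5 g/kg of the other breeding lines, and Air mice stayed in air chambers. All mice, the Air groups included, received 68.1 mg/kg of pyrazole, an inhibitor of alcohol dehydrogenase, and tissue came from day 21 of abstinence. Each array carried RNA pooled from 2 mice, and each group had 4 arrays, of which replicates 1 and 2 came from the first breeding line and replicates 3 and 4 from the second.

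The proteasome is the protease complex that breaks down proteins tagged with ubiquitin. Its core particle is a barrel of alpha and beta rings with the proteolytic sites inside, and a regulatory particle caps the barrel, binds ubiquitin chains, removes them and feeds the unfolded protein in. Rbx1 acts one step earlier, as the RING subunit that brings a ubiquitin-carrying E2 enzyme to cullin ubiquitin ligases. In neurons this system sets the turnover of many synaptic proteins.

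Promoters are shown for Psma1, Psmd4 and Rbx1, the genes on which the ethanol comparisons below turn. RefSeq promoter windows of 300 bases (GRCm38.p6, 250 bases before the start of the gene to 50 after it) were at hand for 6 of the 7 genes, and Psmd7 is named only. Both strands were searched for CCAAT, the box bound by NF-Y, and for TGACNNNGC, the core of the element through which Nfe2l1 (Nrf1) drives proteasome genes. Capitals mark CCAAT or its reverse complement.
Psma1 (chr7:114276067-114276366, minus strand): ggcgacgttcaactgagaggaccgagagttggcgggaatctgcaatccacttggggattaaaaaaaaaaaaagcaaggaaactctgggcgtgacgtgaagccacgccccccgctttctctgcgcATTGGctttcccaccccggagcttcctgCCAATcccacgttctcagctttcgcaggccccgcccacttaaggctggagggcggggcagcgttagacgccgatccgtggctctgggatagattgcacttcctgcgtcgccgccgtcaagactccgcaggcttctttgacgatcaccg
Psmd4 (chr3:95042565-95042864, minus strand): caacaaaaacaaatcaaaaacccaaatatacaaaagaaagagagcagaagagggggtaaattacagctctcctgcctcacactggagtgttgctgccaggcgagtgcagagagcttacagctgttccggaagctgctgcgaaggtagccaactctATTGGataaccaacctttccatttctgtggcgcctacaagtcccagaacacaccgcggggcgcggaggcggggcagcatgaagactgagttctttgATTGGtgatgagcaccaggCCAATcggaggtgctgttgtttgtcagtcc
Rbx1 (chr15:81466066-81466365, plus strand): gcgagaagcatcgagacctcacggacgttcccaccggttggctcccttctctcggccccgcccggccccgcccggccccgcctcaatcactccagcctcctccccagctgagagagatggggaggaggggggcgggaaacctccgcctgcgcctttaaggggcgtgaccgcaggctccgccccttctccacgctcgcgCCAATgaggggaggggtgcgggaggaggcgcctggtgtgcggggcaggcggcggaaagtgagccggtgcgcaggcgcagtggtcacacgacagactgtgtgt
CCAAT stood 3 times in the Psmd4 window, 2 times in that of Psma1 and 1 time in that of Rbx1, and it was found in 3 of the 6 windows. Over 32851 mouse promoters of this length, 37.4% held it. TGACNNNGC was found 1 time, in the Psmb5 window, and 12.4% of all promoters held it. A match describes letters in a window and does not show binding.

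Intensities are given on each array as a multiple of that array's single background value, called times background here. Array brightness differed between groups: male WSR arrays had 1682 to 2040 of the 4696 gene spots at 2 times background or more, male WSP arrays 518 to 604, female WSP arrays 588 to 1428 and female WSR arrays 783 to 1095. Comparisons therefore used log2 values that were quantile normalized, which places each spot by its rank on its array, and the test took in the 2084 spots that reached 2 times background on 4 arrays or more. Of 11 marker spots of cell types, 8 were kept. Those of the neuronal genes Dlg4 and Syn1 reached 2 times background on 18 and 11 of 32 arrays, the astrocyte gene Glul on 32 and the choroid plexus gene Ttr on 32, so the neuronal markers were near background on many arrays. A lower value in such tissue can come from fewer cells of a type or from less RNA per cell, which cannot be told apart. P-values measure the spread between pools of mice, and pools from the same breeding line do not sample a selected trait independently.

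Psma1, an alpha subunit of the ring that forms the entrance of the core particle, reached 2 times background on 16 of 32 arrays. In female WSP mice it was at 1.06, 1.65, 1.82 and 1.52 times background after ethanol, against 1.74, 2.06, 3.27 and 3.50 in air. In female WSR mice it was at 2.73, 3.11, 2.79 and 2.92 after ethanol, against 1.34, 2.56, 1.78 and 1.96 in air. In male WSR mice it was at 40.3, 46.6, 35.5 and 37.5 after ethanol, against 20.0, 31.6, 22.6 and 24.0 in air. The ethanol arrays thus lay below most air arrays in female WSP and above all air arrays in both WSR groups, as did 40.4% of all kept probes in female WSR and 8.3% in male WSR. Male WSP arrays stayed between 1.19 and 1.64 under both treatments and overlapped.

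Psmb4, a beta-ring subunit with no proteolytic site of its own, reached 2 times background on 9 of 32 arrays, 8 of which were the male WSR arrays. There it was at 26.8, 24.3, 20.5 and 38.3 times background after ethanol, against 15.7, 20.5, 21.1 and 21.7 in air. On all other arrays it lay between 0.879 and 2.13. Psmb5, which carries the chymotrypsin-like activity of the core particle, lay between 0.699 and 1.24 times background and reached 2 times background on 0 of 32 arrays. The spots titled for the immunoproteasome subunits Psmb8 and Psmb9, spelled proteosome in the files and so outside the rule, also reached it on 0 arrays.

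Psmd4, a subunit of the regulatory particle that captures ubiquitin chains, reached 2 times background on 17 of 32 arrays. In female WSP mice it was at 1.49, 3.47, 4.52 and 3.28 times background after ethanol, against 4.97, 3.35, 10.5 and 5.22 in air. In female WSR mice it was at 1.84, 2.13, 8.22 and 4.19 after ethanol, against 1.54, 1.38, 1.28 and 1.14 in air. The female WSR treatments did not overlap, and the higher ethanol values were those of WSR-2. Male WSP arrays lay between 1.15 and 1.56 and male WSR arrays between 1.89 and 3.79, with no separation by treatment in either.

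Psmd7, a lid subunit of the regulatory particle that pairs with its deubiquitinating enzyme, was above 2 times background on 32 of 32 arrays. Female WSP mice had 15.3, 25.6, 37.3 and 55.9 times background after ethanol, against 47.9, 32.5, 87.4 and 60.9 in air. Female WSR mice had 54.5, 58.2, 76.2 and 57.7 after ethanol, against 30.2, 32.4, 34.1 and 24.7 in air. Male WSP arrays lay between 7.57 and 14.1 and male WSR arrays between 41.1 and 86.0. Psmd13, another lid subunit, lay between 0.755 and 1.89 times background and reached 2 times background on 0 of 32 arrays. Psmb5 and Psmd13 were therefore not tested, which leaves 5 of the 7 spots in the fit.

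Rbx1 was above 2 times background on 32 of 32 arrays. Female WSP mice had 9.05, 33.4, 50.1 and 39.5 times background after ethanol, against 27.5, 25.5, 60.8 and 30.7 in air. Female WSR mice had 41.8, 50.8, 50.9 and 44.9 after ethanol, against 21.2, 26.3, 28.9 and 17.4 in air. Male WSP arrays lay between 8.84 and 12.7, and male WSR arrays between 75.1 and 126. Before normalization the female WSR ethanol arrays were above all female WSR air arrays for each of the 5 kept spots, as for 40.4% of all 2084 kept probes. For Psmb4 this separation is not a measured one. Its closest ethanol and air arrays were both at 1.67 times background, and 0 of its 8 female WSR arrays reached 2 times background. The female WSR ethanol arrays had 940 to 1095 gene spots at 2 times background against 783 to 922 on the air arrays.

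**Figure D1:**
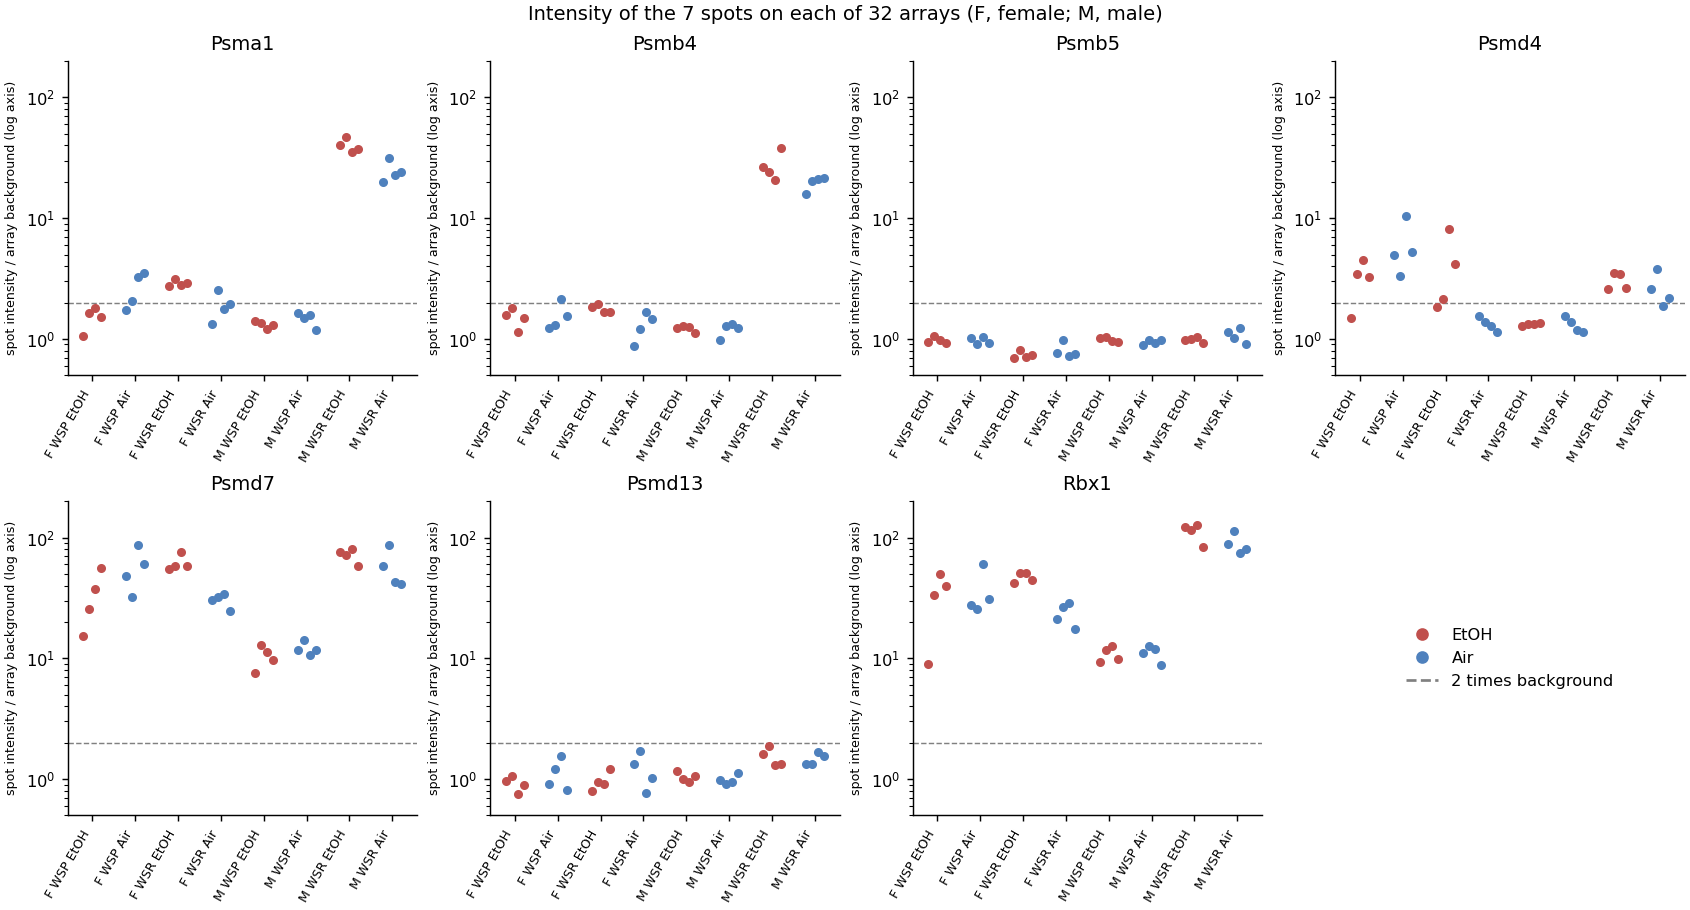
Intensity of each of the 7 spots divided by array background (log axis) on each array, by group, with ethanol (EtOH, red) left of air (blue). Psma1 and Psmb4 were far above the dashed line of 2 times background on male WSR arrays and near it elsewhere, and Psmb5 and Psmd13 stayed below it on all 32 arrays.

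Over the 32 arrays, the log2 times background values of the 5 kept spots had Pearson correlations with array brightness (gene spots at 2 times background) of 0.96 for Psma1, 0.93 for Rbx1, 0.92 for Psmb4, 0.80 for Psmd7 and 0.50 for Psmd4. Between spots they lay between 0.21 for Psmb4 with Psmd4 and 0.98 for Psmb4 with Psma1. These are descriptions over arrays that share their labelling and exposure. After normalization and removal of group means, the pairwise correlations lay between -0.60 for Psmb4 with Psmd4 and 0.31 for Psmd4 with Rbx1. Pools high for 1 subunit were therefore not generally high for the others on the normalized scale.

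Ethanol was compared with air in each sex and line with limma, and an adjusted p under 0.05 (Benjamini-Hochberg over 2084 probes) is a call. None of the 5 kept spots was called in any of the 4 groups. Of all probes, 0.384% were called in female WSP, where 260 had an unadjusted limma p under 0.05. For female WSR these values were 0.048% and 270 probes. For male WSP they were 0.048% and 176 probes, and for male WSR 0% and 64 probes. The differences below are log2 differences of normalized values, EtOH minus Air, with their SE. Normalization adds an offset of 50 intensity units that compresses dim spots, so folds of Psma1, Psmb4 and Psmd4 are understated.

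In female WSP mice, Rbx1 averaged 8.94 ± 0.18 after ethanol and 8.58 ± 0.14 in air (log2, SD, n = 4 each). The 4 ethanol arrays were at 8.66, 9.02, 9.05 and 9.02, against 8.50, 8.70, 8.70 and 8.43 in air, so only replicate 1 overlapped the air arrays. The log2 difference was 0.35 ± 0.092 (limma adjusted p = 0.096), and 4 of 4 ethanol arrays exceeded the mean in air. Without ethanol replicate 1 it was 0.45 and passed (adjusted p = 0.0095). Over all 36 fits with single arrays or replicates left out it ranged from 0.28 to 0.45 (adjusted p between 0.0095 and 0.27), and only that 1 passed. It also passed in the authors' deposited scores (adjusted p = 0.035) and without an intensity trend in the fit (adjusted p = 0.020). With cyclic loess normalization it was 0.41 and passed narrowly (limma adjusted p = 0.0499). It did not pass with array weights, in the first or second breeding lines alone, or with only the arrays of this comparison in the fit. It turned to -0.33 when arrays were scaled by their median, a scaling that put the all-probe median at -0.12.

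Psma1 and Psmd4 lay on the other side in female WSP mice. Psma1 was at 5.81, 6.05, 6.10 and 6.01 after ethanol, against 6.12, 6.38, 6.19 and 6.37 in air, and the treatments did not overlap, which was true of 3.74% of all kept probes. Its log2 difference was -0.27 ± 0.12 (adjusted p = 0.31), and since 0 of 4 ethanol arrays reached 2 times background no fold is given. With cyclic loess normalization it was 0.0071, and in the authors' deposited scores it passed (-0.77 score units, adjusted p = 0.044). Psmd4 was at 6.33, 6.86, 6.99 and 6.76 after ethanol, against 7.20, 6.95, 7.09 and 6.74 in air, a difference of -0.26 ± 0.16 (adjusted p = 0.57). It was -0.053 without replicate 1 and -0.12 without female WSP EtOH replicate 1, and at the other end -0.35 without replicate 4. Female WSP ethanol arrays had 588 to 1028 gene spots at 2 times background, against 857 to 1428 on the air arrays. Summed over the 11 marker spots they held 37.6 to 129 times background, against 112 to 209 on the air arrays. That sum weighs mostly the brightest marker spots, with medians of 45.7 for 1 hemoglobin alpha spot, 38.1 for Ttr and 17.4 for Glul. Whether brightness or cell make-up had a part in these differences was not tested.

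In female WSR mice Psmd4 was at 6.18, 6.21, 7.20 and 6.81 after ethanol, against 6.17, 5.96, 5.98 and 5.89 in air. The treatments did not overlap, which was true of 5.37% of all kept probes, and the WSR-2 pools (7.20 and 6.81) stood above the WSR-1 pools (6.18 and 6.21). The log2 difference was 0.60 ± 0.16 (adjusted p = 0.21), and 4 of 4 ethanol arrays exceeded the mean in air. With 0 of 4 air arrays at 2 times background and 3 of 4 ethanol arrays there, the ethanol mean was set against a floor for air. The floor counts each air array at the higher of its own value and the lowest value there of a spot at 2 times background. It averaged 6.35, and the ethanol mean was 1.19-fold above it. The WSR-1 ethanol pools lay below that floor, so the bound rests on the WSR-2 pools. Leaving out single arrays or replicates gave log2 differences of 0.39 to 0.80, with an adjusted p between 0.055 and 0.57.

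The other 4 kept spots had smaller differences above 0 in female WSR mice. Psma1 had 0.21 ± 0.12 (adjusted p = 0.45), Psmd7 0.14 ± 0.14 (adjusted p = 0.72), Rbx1 0.10 ± 0.092 (adjusted p = 0.66) and Psmb4 0.089 ± 0.13 (adjusted p = 0.82). With cyclic loess Psma1 turned to -0.12 and Psmb4 to -0.098, and Psmb4 was at -0.0078 without replicate 1. All 5 kept spots were above 0 in this group, as were 65.6% of all kept probes. Psmb4 is counted there although 0 of its 8 female WSR arrays reached 2 times background. The 11 marker spots, weighed mostly by hemoglobin alpha, Ttr and Glul, summed to 132 to 185 times background on the female WSR ethanol arrays. On the air arrays they summed to 79.2 to 96.9, and their part in the result was not tested.

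Among male groups, Rbx1 was at 8.83, 8.98, 8.96 and 8.94 after ethanol in male WSP, against 8.70, 8.89, 8.79 and 8.73 in air, a log2 difference of 0.15 ± 0.092 (adjusted p = 0.75) that turned to -0.059 under median scaling. Psma1 was at 7.21, 7.21, 7.04 and 7.17 after ethanol in male WSR, against 6.87, 6.96, 6.92 and 6.96 in air. These arrays did not overlap, which was true of 3.79% of all kept probes, and the difference was 0.23 ± 0.12 (adjusted p = 1.00); median scaling, where the all-probe median was 0.18, gave 0.63 and a call (adjusted p = 0.00074).

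**Figure D2:**
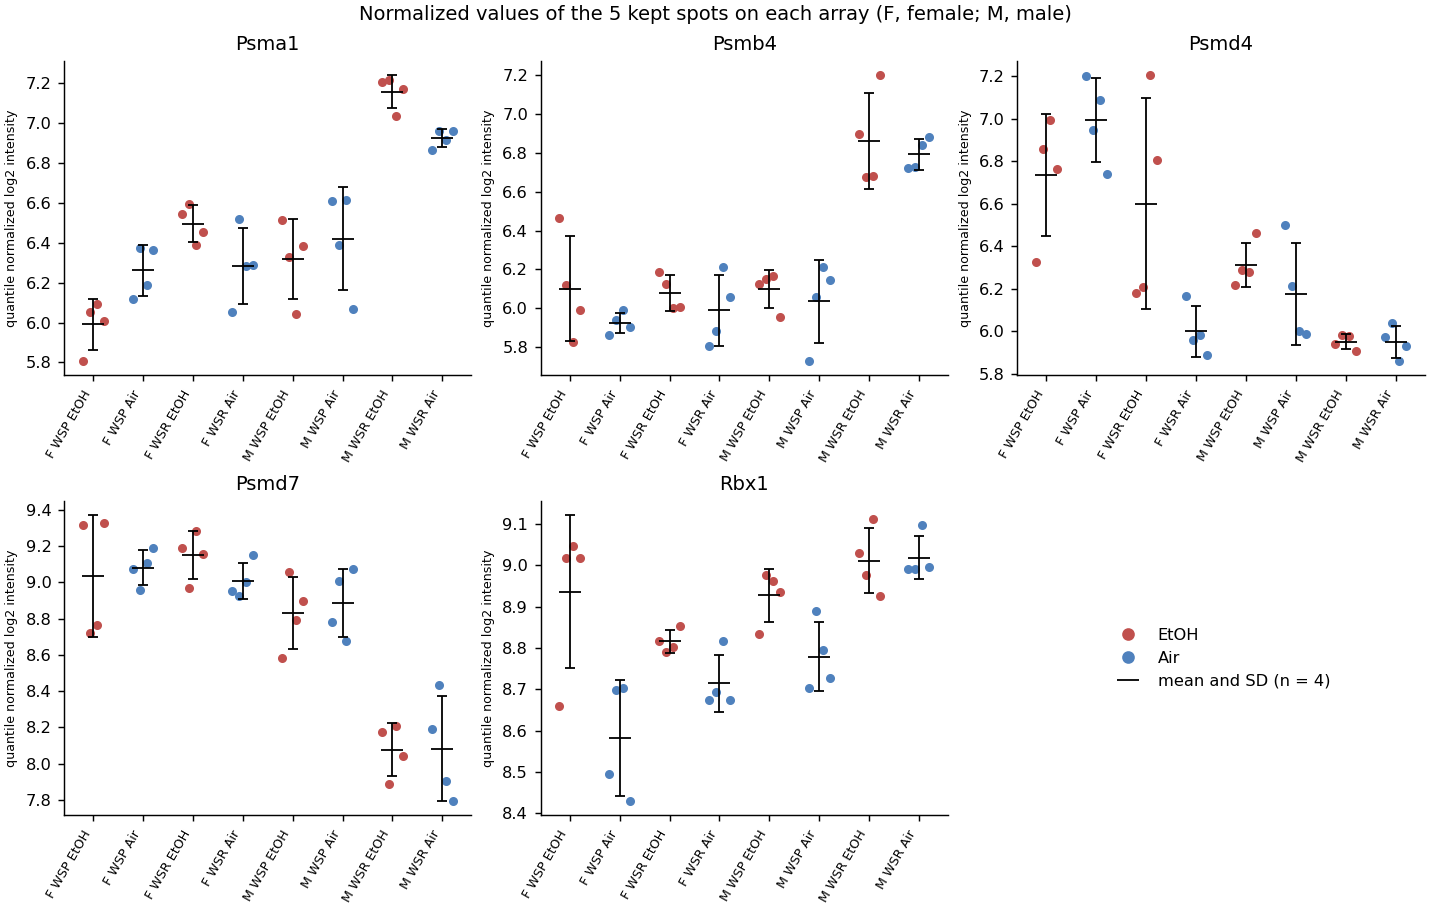
Quantile normalized log2 intensity of the 5 kept spots on each array, with the mean and SD of each group of 4 arrays, ethanol (EtOH, red) left of air (blue). Rbx1 ethanol arrays of female WSP lie at 8.66 to 9.05 against 8.43 to 8.70 in air, and Psmd4 in female WSR has 2 ethanol arrays at 7.20 and 6.81 with the others at 6.18 and 6.21.

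Over all groups together, 0 of 5 spots were called, against 0% of all probes, and limma gave 98 probes an unadjusted p under 0.05. The largest of the 5 differences was that of Rbx1, 0.15 ± 0.046 (limma adjusted p = 0.86, unadjusted p = 0.0028). Of its 16 ethanol arrays 15 exceeded the mean of all 16 air arrays, a count that pools groups of unlike level. Male WSR averaged 9.01 after ethanol and 9.02 in air (log2). Without the male WSR arrays the Rbx1 difference was 0.20 (limma adjusted p = 0.72). All 5 kept spots were above 0, as were 60.7% of all kept probes.

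The ethanol difference was then set between the lines, as that of WSP minus that of WSR over both sexes. None of 5 spots passed, against 0.24% of all probes, and limma gave 262 probes an unadjusted p under 0.05. Psma1 had -0.41 ± 0.12 (adjusted p = 0.16), Psmd4 -0.36 ± 0.16 (adjusted p = 0.35) and Rbx1 0.20 ± 0.092 (adjusted p = 0.34). Median scaling put the all-probe median at -0.20; there 27.4% of all probes passed, as did Psma1 (-0.55, adjusted p = 0.0037), Psmd4 (-0.56, adjusted p = 0.021) and Psmd7 (-1.04, adjusted p = 0.013), and Rbx1 turned to -0.66. In the authors' deposited scores 4.5% of all probes and Psma1 passed (-0.86 score units, adjusted p = 0.034). Between the sexes the ethanol difference was called for 0 of 5 spots and for 0% of all probes, while 122 had an unadjusted limma p under 0.05.

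**Figure D3:**
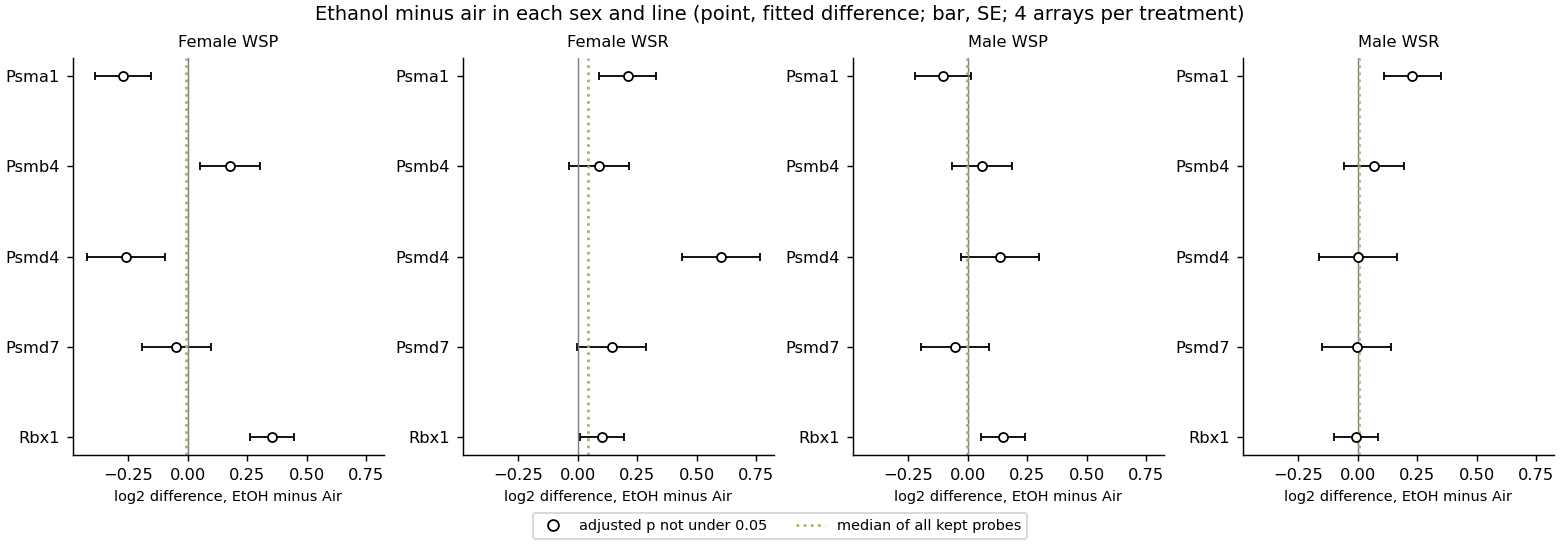
Fitted log2 difference, EtOH minus Air, of the 5 kept spots in each sex and line (open points, not called; bars, SE; dotted line, median of all 2084 kept probes). Rbx1 at 0.35 in female WSP and Psmd4 at 0.60 in female WSR lie farthest above 0, and Psma1 lies at -0.27 in female WSP and 0.23 in male WSR.

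As a joint measure, the median log2 difference of the 5 kept spots was taken beside that of all kept probes. For female WSP it was -0.047, beside -0.0049 over all probes, and for female WSR 0.14 beside 0.046. For male WSP it was 0.062 beside -0.0031, and for male WSR 0.00062 beside 0.0056. Median scaling gave -0.33 for female WSP (all probes -0.12), 0.58 for female WSR (all probes 0.10), -0.051 for male WSP and 0.34 for male WSR (all probes 0.18). With 1 array or replicate number left out, the median changed sign in 3 of the groups: it ranged from -0.15 to 0.057 in female WSP, -0.038 to 0.088 in male WSP and -0.015 to 0.11 in male WSR, against 0.11 to 0.19 in female WSR. The positive values in female WSP came without replicate 2 or 3 or without female WSP EtOH replicate 2 or 3. The negative ones in male WSP came without replicate 1 or male WSP Air replicate 1, and in male WSR without replicate 3, male WSR EtOH replicate 3 or male WSR Air replicate 4. The mean deviation of the 5 spots from their own average over all arrays was 0.093 ± 0.087 after ethanol and -0.14 ± 0.054 in air in female WSR (SD, n = 4 each), with ranges of 0.0016 to 0.20 and -0.21 to -0.075 that did not overlap. The mean deviation of all kept probes did not overlap there either, at 0.0078 to 0.012 after ethanol and -0.053 to 0.0019 in air. In female WSP it was 0.025 ± 0.044 after ethanol and 0.034 ± 0.039 in air. In male WSP it was -0.038 ± 0.055 after ethanol and -0.076 ± 0.045 in air, and in male WSR 0.077 ± 0.049 after ethanol and 0.020 ± 0.053 in air.

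Each selected line consisted of separately bred lines, so ethanol was compared with air within each of them over both sexes (4 arrays per treatment, 16 means in the fit). None of the 5 kept spots passed in any breeding line, while 0.096% of all probes passed in WSP-1, 0.768% in WSP-2 (0.528% higher after ethanol), 0.096% in WSR-1 and 0% in WSR-2. Unadjusted limma p-values under 0.05 numbered 173 in WSP-1, 273 in WSP-2, 199 in WSR-1 and 79 in WSR-2. Psmd4 had a log2 difference of 0.56 ± 0.12 in WSR-2 (adjusted p = 0.12, unadjusted p = 0.00015). The WSR-2 females were at 7.20 and 6.81 after ethanol, against 5.98 and 5.89 in air, and the WSR-2 males at 5.98 and 5.91 after ethanol, against 5.86 and 5.93 in air. The high values were thus those of 2 female pools. Psmd4 passed in WSR-2 when arrays were scaled by their median (0.64, adjusted p = 0.0043) and in the authors' deposited scores (adjusted p = 0.0070).

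Rbx1 had a log2 difference of 0.33 ± 0.095 in WSP-2 (adjusted p = 0.11). Its 4 WSP-2 ethanol arrays were at 9.05, 9.02, 8.96 and 8.94, all above the WSP-2 air arrays at 8.70, 8.43, 8.79 and 8.73, a separation seen for 3.5% of all kept probes. WSP-2 was also the breeding line that received the larger injection, and line and dose cannot be told apart. Psmb4 had 0.32 ± 0.11 in WSP-1 (adjusted p = 0.35), where 0 of 4 ethanol arrays and 0 of 4 air arrays were at 2 times background. Psma1 had 0.29 ± 0.12 in WSR-1 (adjusted p = 0.49), and 0.49 with a call under median scaling (adjusted p = 0.0056). Whether the ethanol difference itself differed between 2 breeding lines of the same selection was not tested.

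The median ethanol difference of the 5 spots was -0.035 in WSP-1, -0.065 in WSP-2, 0.066 in WSR-1 and 0.15 in WSR-2, beside -0.0052, -0.0077, 0.036 and 0.023 for all kept probes. The second breeding line was also set against the first over both treatments and sexes. None of 5 spots was called within WSP (0% of all probes, with an unadjusted limma p under 0.05 for 225) or within WSR (0.048% of all probes, 262 at that level). The median difference of the 5 spots was -0.029 within WSP and 0.039 within WSR.

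**Figure D4:**
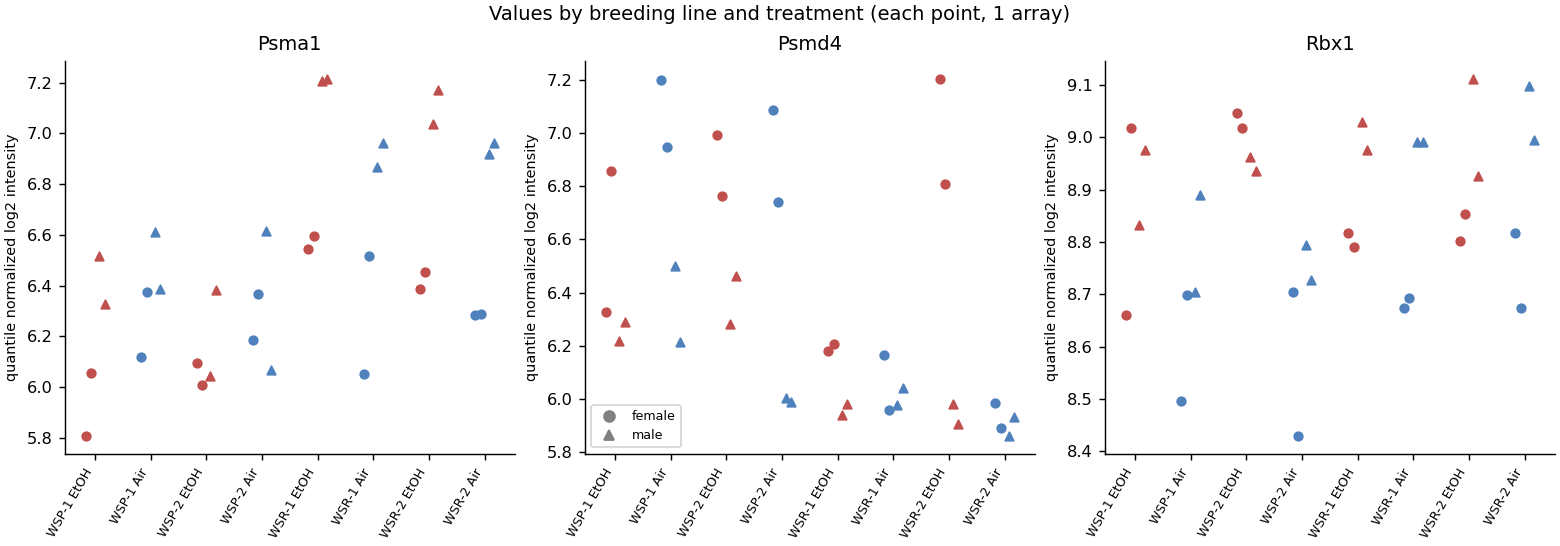
Quantile normalized log2 intensity of Psma1, Psmd4 and Rbx1 on each array by breeding line, with ethanol (EtOH, red) left of air (blue), circles for female and triangles for male pools. In WSR-2 the Psmd4 ethanol values of 7.20 and 6.81 are both female, and in WSP-2 all 4 Rbx1 ethanol arrays lie above the air arrays.

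WSP was compared with WSR over both treatments within each sex, because array brightness followed the line in males. In females 2 of 5 kept spots were called, against 12.1% of all probes (7.53% higher and 4.56% lower in WSP). Psmd4 was higher in female WSP, at 6.86 against 6.30 in female WSR, a log2 difference of 0.56 ± 0.12 (limma adjusted p = 0.0010), and 8 of 8 WSP arrays exceeded the mean of WSR. Psma1 was lower in female WSP, at 6.13 against 6.39 in female WSR, a difference of -0.26 ± 0.083 (limma adjusted p = 0.033), and 8 of 8 WSP arrays were under the mean of WSR. The Psmd4 call was lost under median scaling (0.21, adjusted p = 0.19), with cyclic loess (0.31, adjusted p = 0.11) and in the second breeding lines alone (0.42, adjusted p = 0.060). Psma1 was -0.019 with cyclic loess, and its call was lost without any 1 of replicates 1 to 4 (adjusted p between 0.056 and 0.21). It was also lost without female WSP Air replicate 1 or 3, female WSP EtOH replicate 1, female WSR Air replicate 2, or female WSR EtOH replicate 1 or 2, where the difference lay between -0.26 and -0.23. Psmd7 (-0.021), Psmb4 (-0.021) and Rbx1 (-0.0060) had differences near 0 between female lines with quantile normalization. Under median scaling 3 of 5 spots were called between female lines, Psmd4 not among them, against 36.4% of all probes. The median difference of the 5 spots was then -0.23, beside -0.099 over all probes.

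In males 5 of 5 kept spots were called, against 58.3% of all probes (24.4% higher and 34.0% lower in WSP), so the count is read against a comparison in which most probes were called. The count includes Psmb4, whose test is not read, as given below. Psmd7 was at 8.86 in male WSP and 8.08 in male WSR, a log2 difference of 0.78 ± 0.10 (limma adjusted p = 8.4e-08, 8 of 8 WSP arrays on that side); under median scaling, where the all-probe median was -0.69, it turned to -1.97. Before normalization the order was the opposite: the male WSP arrays were at 7.57 to 14.1 times background and the male WSR arrays at 41.1 to 86.0. Psmd4 had 0.29 ± 0.12 (adjusted p = 0.031) and also turned, to -0.23 under median scaling. Before normalization its order was the opposite too. Its male WSP arrays were at 1.15 to 1.56 times background, with 0 of 8 at 2 times background, so these values are only bounds. Its male WSR arrays were at 1.89 to 3.79, with 7 of 8 at 2 times background. Rbx1 had -0.16 ± 0.065 (adjusted p = 0.033), and it was higher in male WSP in the authors' deposited scores.

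Psmb4 lay at 0.981 to 1.32 times background on male WSP arrays and at 15.7 to 38.3 on male WSR arrays. It entered the fit only through the male WSR arrays, so its test is not read. Psma1 was at 6.37 in male WSP and 7.04 in male WSR, a log2 difference of -0.67 ± 0.083 (adjusted p = 3.1e-08). Neither spot reached 2 times background on any of the 8 male WSP arrays, and both reached it on all 8 male WSR arrays, so the male WSP values are only bounds. Set against the dimmest measured spots of the male WSP arrays, the normalized male WSR level was 0.859 times that floor for Psmb4 and 0.997 times for Psma1, so no fold is given. Psma1 and Psmd7 did not overlap between the male lines, as was true of 32.4% of all kept probes. Psmb4 did not overlap either, but it was kept only through the male WSR arrays, so its separation is not read. Psmd4 lost its call without replicate 1, 2 or 4, at 0.26 to 0.31, and Rbx1 without any 1 of replicates 1 to 4, at -0.20 to -0.14. Both also lost their calls without a filter and in the first or second breeding lines alone. Rbx1 lost it too without background correction and with a normexp offset of 10. Psmd4 lost its call without male WSP Air replicate 1, male WSP EtOH replicate 4, male WSR Air replicate 3 or male WSR EtOH replicate 4, at 0.24 to 0.28. Rbx1 lost it without male WSP Air replicate 1 or 4, male WSP EtOH replicate 1, male WSR Air replicate 3 or male WSR EtOH replicate 3, at -0.15.

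The line difference itself differed between the sexes for 3 of 5 spots, against 53.1% of all probes. As the female minus the male line difference, Psmd7 had -0.80 ± 0.14 (adjusted p = 2.7e-05) and Psma1 0.41 ± 0.12 (adjusted p = 0.0043). The male WSP values of Psma1 in it are only bounds. The third spot was Psmb4, whose value rests on male WSR, the group of 8 of its 9 arrays at 2 times background. Psmb4 entered the fit only through those arrays, so its test is not read here either. Median scaling turned Psmd7 to 1.26. Psma1 lost its call without replicate 4 (0.33, adjusted p = 0.054). Over both sexes, WSP minus WSR was called in air for 5 of 5 spots, 2 higher and 3 lower (all probes 39.8%, with 16.3% higher and 23.6% lower). After ethanol it was called for 3 of 5, 1 higher and 2 lower (all probes 43.9%, with 14.8% higher and 29.1% lower). Over both treatments it was called for 4 of 5, 2 in each direction (all probes 54.4%, with 22.4% higher and 32.0% lower). Female minus male over all groups was called for 5 of 5, 2 higher and 3 lower (all probes 59.2%, with 23.8% higher and 35.5% lower). These comparisons hold the male WSR arrays on 1 side, and nothing about the spots is read from them here.

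**Figure D5:**
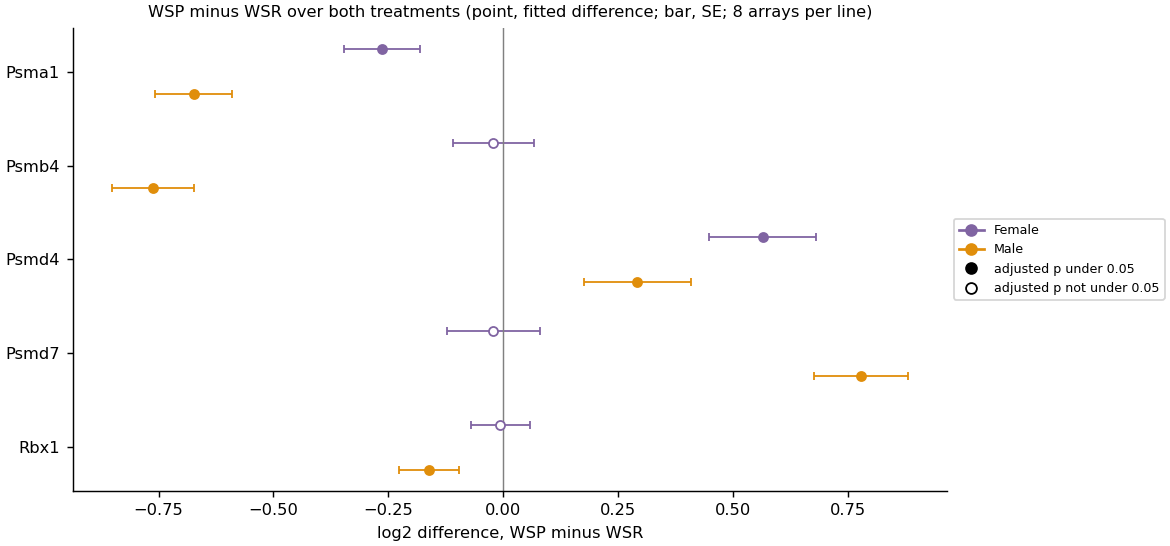
Fitted log2 difference, WSP minus WSR, of the 5 kept spots in females (purple) and males (orange) over both treatments (filled points, adjusted p under 0.05; bars, SE). Psmd7 stands at 0.78 in males and near 0 in females. The male Psma1, Psmb4 and Psmd4 points rest on male WSP values under 2 times background. Psmd4 is above 0 in both sexes, and under median scaling Psmd7 and Psmd4 turn below 0 in males.

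For each kept spot, the 3 titled spots with the most alike deviations from group means were found by Pearson correlation over 32 arrays and 452 titled spots. They describe likeness within these arrays, which share labelling and exposure. For Psmd4 they were Pl6 (0.78), coagulation factor VII (0.54, but 0.23 by Spearman correlation) and budding uninhibited by benzimidazoles 1 homolog beta (0.50). For Psmd7 they were GDP dissociation inhibitor 3 (0.67), oncoprotein induced transcript 5 (0.66) and SRY-box containing gene 15 (0.62). Psmb4 was most like the SPO11 homolog (0.76), mast cell protease 5 (0.71) and cytidine monophospho-N-acetylneuraminic acid synthetase (0.70). Psma1 was most like neuron specific gene family member 2 (0.59), small inducible cytokine A22 (0.58) and bisphosphate 3'-nucleotidase 1 (0.57). Rbx1 was most like fibulin 2 (0.67), microsomal glutathione S-transferase (0.64) and a muscle-specific serine kinase (0.54). No kept proteasome spot or Rbx1 stood among the 3 most alike spots of another. Some of the named spots were dim. Neuron specific gene family member 2 reached 2 times background on 4 of 32 arrays, bisphosphate 3'-nucleotidase 1 on 5 and the acid synthetase on 8. Mast cell protease 5, oncoprotein induced transcript 5 and coagulation factor VII each reached it on 9.

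Spots of ubiquitin conjugation and related steps numbered 16, of which 6 were kept: Uba3, Mdm2, Rnf7, Ubl3, Fbxl12 and Ufd1. None of the 6 was called in any ethanol comparison, and their median ethanol difference was -0.052 in female WSP (all probes -0.0049) and 0.12 in female WSR (all probes 0.046). It was -0.022 in male WSP (all probes -0.0031) and -0.0099 in male WSR (all probes 0.0056). Between male lines Mdm2, a ubiquitin ligase for p53, was higher in WSP by a log2 difference of 0.64 ± 0.14 (adjusted p = 0.00016), Fbxl12, a substrate receptor of cullin ligases, by 0.23 ± 0.096 (adjusted p = 0.042), and Uba3, which activates the cullin modifier Nedd8, was lower at -0.11 ± 0.036 (adjusted p = 0.012). These 3 of 6 stand beside the 58.3% called over all probes. Before normalization 92.9% of all kept probes had every male WSP array below every male WSR array, and 0% lay the other way. Median scaling put the all-probe median between male lines at -0.69. The 3 directions are given for quantile normalized values, and how they fare under other scalings is not given here. Uba3 reached 2 times background on 6 arrays, Mdm2 on 17 and Fbxl12 on 19. The median of Uba3 was 1.16 times background, so it was near background. Between female lines 0 of 6 were called, beside 12.1%. Of 11 ESTs similar to proteasome or ubiquitin proteins 4 were kept, and of 10 spots for lysosomal or calpain proteases and their organelle 5 were kept, and 0 of these were called in any ethanol comparison.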

How the data were processed

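Each of 32 arrays measured 33P-labelled cDNA of total RNA pooled from 2 mice. Each array file holds spot intensity values and 1 background value per array, as deposited by the authors and not background-subtracted. The sources used here name no platform, scanner or quantification program. A deposited table of scores was found, by comparison with the array files, to be a linear rescaling per array of log2 intensity by the authors. Array background was 6.96 to 30.3 intensity units.

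Spots were joined by spot number, since 1 array file lists them in another order. Of 5355 spots, 192 of genomic DNA and 467 unknown ones were set aside. Intensities were corrected with normexp (offset 50), put on the log2 scale and quantile normalized over 4696 gene spots, and the 2084 that reached 2 times background on 4 arrays or more were tested. limma 3.58.1 (R 4.3.3) fitted 8 group means (24 residual degrees of freedom, eBayes with trend) for 14 comparisons, and 16 means (16 residual degrees of freedom) for 6 comparisons of breeding lines. Adjusted p-values are Benjamini-Hochberg over 2084 probes, with a threshold of 0.05. Tables and figures used Python 3.11.15, pandas 2.3.3, numpy 2.4.6 and matplotlib 3.10.9.

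The fits were tested on simulated data. Members and lists were chosen with earlier results of these data known. Named spots were all members, and for each kept member the 3 titled spots with the most alike deviations. Same-numbered pools correlated between -0.10 and 0.41 in their deviations, so pool numbers were not treated as pairs. Alternatives changed normalization, background correction, filter, source of values, weights, block, arrays in the fit and threshold. The level of 1 marker spot is not reported here. The number of arrays limits precision.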

Additional observations from a re-analysis of the deposited data

Results flagged for a closer look

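In 4 of 56 groups of 4 arrays, 1 array lay apart from the other 3 by Dixon's criterion, which chance meets in about 1 in 20 groups. Rbx1 was at 8.66 on female WSP EtOH replicate 1 (normalized log2), with the others at 9.02 to 9.05. It was at 8.82 on female WSR Air replicate 3, with the others at 8.67 to 8.69, and at 9.10 on male WSR Air replicate 3, with the others at 8.99. Psmb5, below 2 times background on all arrays, was at -0.019 log2 times background on female WSR Air replicate 2, with the others at -0.46 to -0.40.

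The WSP minus WSR difference was itself different between the sexes for 3 of 5 spots by limma's test, beside 53.1% of all probes. The female minus male value was -0.80 for Psmd7, which turned to 1.26 under median scaling, and 0.41 for Psma1, whose male WSP values are only bounds. For Psmb4 it was 0.74. Psmb4 reached 2 times background on 8 male WSR arrays and 1 other, so its test is not read. On the normalized scale Psma1 also had all female WSP ethanol arrays below the air arrays (-0.27, a separation seen for 3.74% of all probes) and all male WSR ethanol arrays above them (0.23, 3.79% of all probes). In times background the female WSP arrays overlapped, and cyclic loess put that difference at 0.0071; the difference between these groups, -0.50, was not tested.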

How the results depend on the processing

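Counts of called spots moved under the settings below, given with the share of all probes called in brackets. They are out of 5 spots, except 4 in the authors' scores, 4 with the filter on 16 arrays and 7 without a filter. For EtOH minus Air, female WSP had 1 with cyclic loess (1.01%), 2 in the authors' scores (6.44%), 1 without an intensity trend (0.48%) and 1 at a threshold of 0.10 (0.672%), and male WSR had 1 under median scaling (6.86%). The difference of WSP minus WSR in this had 3 under median scaling (27.4%) and 1 in the authors' scores (4.5%). For WSP minus WSR in air there were 3 with cyclic loess (32.0%), 3 in the authors' scores (55.7%), 2 in the first (19.1%) and 3 in the second breeding lines (26.6%), 1 in females (0.96%) and 3 at a threshold of 0.01 (25.4%). After ethanol there were 5 under median scaling (82.2%), 1 with cyclic loess (36.7%), 1 in the first breeding lines (30.4%) and 0 in females (0.48%), and over both treatments 1 in females (6.57%). Female lines had 3 under median scaling (36.4%), 0 with cyclic loess (7.1%), 1 with array weights (11.9%), 1 in the first (4.7%) and 0 in the second breeding lines (5.76%), 1 with only their own arrays in the fit (6.57%) and 1 at 0.01 (7.05%). Male lines had 3 without a filter (30.1%), in the authors' scores (66.2%), in the first (45.3%) or second breeding lines (49.5%) and at 0.01 (47.9%). Female minus male had 5 for the line difference under median scaling (77.4%) and 3 over all groups in the authors' scores (63.3%). Median scaling gave 1 in WSP-1 (5.47%), WSR-1 (13.1%), WSR-2 (3.17%) and for second minus first breeding line in WSP (11.7%) and WSR (21.4%). WSR-2 also had 1 with the filter on 16 arrays (0.345%) and in the authors' scores (0.265%), and WSR second minus first 1 with cyclic loess (5.13%). Directions turned under median scaling for Rbx1 in female WSP (-0.33), male WSP (-0.059) and between lines (-0.66), for Psmd7 (-1.97) and Psmd4 (-0.23) between male lines and for Psmd7 between sexes (1.26). With cyclic loess they turned for Psma1 in female WSP (0.0071) and female WSR (-0.12) and for Psmb4 in female WSR (-0.098, -0.13 in the second breeding lines and -0.0078 without replicate 1). In the authors' scores they turned for Psmd4 (-0.036) and Rbx1 (0.82) between male lines. The cause was not tested.

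With 1 array or replicate number left out, called spots numbered 0 to 1 in female WSP, 3 to 5 between lines in air, 2 to 4 after ethanol, 1 to 2 in females, 3 to 5 in males and 2 to 4 for the line difference between sexes. With a replicate block on breeding line, or on breeding line and pool, no call changed: Rbx1 in female WSP had adjusted p of 0.089 and 0.059, and Psmd4 in female WSR 0.19 and 0.22. Spots under 2 times background limit what can be read for Psma1, Psmb4 and Psmd4.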
